A study of Mus musculus with 23 samples.

Results

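Bone marrow of mice labelled STAT5B-Y665H was compared with bone marrow of wild-type (WT) mice by single-cell RNA sequencing. The comparison holds 4 of the 23 samples of the series, chosen by tissue, library type and genotype in their titles: 2 expression libraries named WT and 2 named Y665H, each pair numbered replicate 1 and replicate 2. All mice were labelled C57BL/6 and 2 months old (the methods name the C57BL/6N substrain for the edited embryos), and marrow was taken from tibiae and femurs. WT mice carried the germline tyrosine codon (Y665) of Stat5b, and Y665H mice carried a histidine codon placed there by adenine base editing of embryos. The allele is therefore present in every cell type of the animal and not only in blood cells, and the bone marrow labels do not give its zygosity. The other 2 bone marrow libraries, labelled Y665F (phenylalanine at the same position), entered the statistical fit and are shown where a contrast with them helps to read a value. The labels do not say how many animals went into a library. The p-values of the main fit rest on the spread between libraries that is left once genotype and replicate number are fitted. This spread is largely pooled over the genes tested, since 2 residual degrees of freedom say little about a gene's own. The p-values do not measure the whole spread between the libraries of a genotype.

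STAT5B is a transcription factor that Janus kinases phosphorylate after cytokines such as IL-2, IL-7, erythropoietin, thrombopoietin and growth hormone bind their receptors. The phosphorylated protein forms dimers through its SH2 domain, enters the nucleus and switches on genes that include its own feedback inhibitors Cish and Socs2. Tyrosine Y665 lies in the SH2 domain, and in marrow the pathway is known for its part in stem cell maintenance and in lymphoid, erythroid and megakaryocyte growth.

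The sequence that defines the Y665H allele is the target of the editing guide, shown because it marks which base was changed. It lies in exon 16 of 19 of Stat5b at chr11:100787287-100787309 of mm10, on the plus strand. Stat5b itself is read from the minus strand, so the guide carries the complement of the codon. In the first line the capitals mark the edited adenine, position 7 counted from the 5′ end of the guide (A7G), and the PAM. In the second line they mark the Y665 codon on the coding strand (chr11:100787267-100787317, minus strand), which the edit turns from TAC into CAC.
guide and PAM: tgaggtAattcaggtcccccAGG
Stat5b coding strand: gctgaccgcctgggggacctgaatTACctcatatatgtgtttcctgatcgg

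The 4 libraries held 4420, 11416, 10595 and 12228 barcodes in the order WT replicate 1, WT replicate 2, Y665H replicate 1 and Y665H replicate 2, and between 16399123 and 41186156 unique molecular identifiers (UMIs, counts of distinct RNA molecules). WT replicate 1 stood apart. It had the fewest barcodes, a median mitochondrial share of 1.90% against 0.951% to 1.17% in the other 3, ribosomal protein genes at 28.3% of UMIs against 30.3% to 31.6%, and the long nuclear RNA Gm26917 at 641 against 117 to 191 CPM. CPM are UMIs of a gene per 1000000 UMIs of the library, here and below with the library size scaled by the trimmed mean of M-values (TMM) method, which sets libraries to a common level of the typical gene. Results are given with and without WT replicate 1 where it decides them. Replicate 1 of each genotype expressed Xist and lacked Ddx3y, and replicate 2 the reverse. Replicates 1 and 2 of a genotype were therefore not from the same animal, and replicate number and the sex of the cells cannot be told apart. Between 1.54% and 2.04% of the smaller library's barcodes recurred in another of the 4 libraries. Against its label, the marrow held few mature cells: neutrophil-gated cells made up 0.183% to 0.493% of the cells, and the beta-globin gene Hbb-bs reached 8.96 to 20.7 CPM. The T-cell gene Cd3e was at 0.185 CPM or lower in each library.

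Counts were summed over all kept cells of a library and fitted with edgeR's quasi-likelihood test, with genotype and replicate number as terms. A gene passed at a Benjamini-Hochberg adjusted p under 0.05 over all genes tested. In such sums, fewer cells of a type and less RNA per cell cannot be told apart. Of 13923 genes tested, 18 passed (0.129%), 9 higher in Y665H (0.0646%) and 9 lower (0.0646%), and all 18 differed by more than 2-fold. Without the replicate term 0 genes passed edgeR's test (723 had an unadjusted p under 0.05), and DESeq2 with the replicate term passed 4. These 4 were Hspa1a, Hspa1b, Dqx1 and Snhg9. With WT replicate 1 left out, their log2 differences in edgeR ran from 1.54 for Snhg9 to 2.995 for Hspa1a.

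Among the genes that passed, immunoglobulin genes aside, the largest rise was in the stress-inducible 70-kDa heat shock protein genes Hspa1a and Hspa1b, chaperones that bind unfolded proteins. Hspa1a was at 0.272 and 1.62 CPM in WT replicates 1 and 2 and at 4.03 and 15.0 in Y665H replicates 1 and 2, from 5, 41, 144 and 326 UMIs. Both Y665H libraries lay above both WT libraries, and within each genotype replicate 2 was the higher. The fitted log2 difference was 3.29 ± 0.34 (SE, n = 2 per genotype), or 9.79-fold (edgeR adjusted p = 1.67e-09), and the replicate pairs differed by 2.55 and 2.87. Hspa1b was at 0.381 and 1.42 in WT and 3.30 and 14.0 in Y665H, again without overlap, with a log2 difference of 3.14 ± 0.36 (adjusted p = 1.46e-08). The Y665F libraries held 2.62 and 5.28 CPM of Hspa1a. Without the replicate term the Hspa1a difference was 3.23 ± 0.63 with an adjusted p of 0.579, so the call rests on matching the libraries by number. With 1 library left out, the Hspa1a difference ran from 2.995 (without WT replicate 1) to 4.13 (without WT replicate 2). That of Hspa1b ran from 2.47 (without Y665H replicate 2) to 3.59 (without Y665H replicate 1). Both differences stayed above 0 in each of these fits. Such a fit leaves 1 library in a genotype and assumes that it varies like the others. The coding parts of the pair are near-identical copies, so how reads were split between them is uncertain, and Gm20481 overlaps Hspa1a on the other strand.

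The stretches before the starts of both genes are shown because the genes moved together. They were taken from the RefSeq table of promoters (GRCm38.p6), 250 bases before each start, at chr17:34972157-34972406 for Hspa1a and chr17:34959239-34959488 for Hspa1b, both on the minus strand. The capitals mark the pattern GAANNTTC, the inverted pair of the unit that heat shock factors are known to bind, searched on both strands, which read alike for this pattern.
Hspa1a: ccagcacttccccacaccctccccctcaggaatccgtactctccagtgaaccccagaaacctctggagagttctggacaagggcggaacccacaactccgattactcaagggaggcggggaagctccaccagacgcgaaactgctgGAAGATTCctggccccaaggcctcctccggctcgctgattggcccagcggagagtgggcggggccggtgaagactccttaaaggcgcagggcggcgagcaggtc
Hspa1b: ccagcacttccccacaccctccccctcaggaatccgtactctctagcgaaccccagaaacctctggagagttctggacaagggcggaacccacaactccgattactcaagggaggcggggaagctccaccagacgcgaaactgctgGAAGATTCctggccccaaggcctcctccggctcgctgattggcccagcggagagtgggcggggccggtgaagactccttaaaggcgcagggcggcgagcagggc
Both hold 1 match, which begins 104 bases before the start, and the windows differ at 3 of 250 positions. The pattern occurred in 6.69% of 32851 mouse promoter windows of this length. A match is a description of the letters and not evidence of binding.

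The other members of the heat shock list pointed the same way without passing. Of 15 genes tested, 15 had a log2 difference above 0 and 2 passed (Hspa1a and Hspa1b). For 9 (60%), these 2 among them, both Y665H libraries lay above both WT libraries. That share was 71.25% and 62.7% in the respiratory chain and ribosomal protein lists described below. Over all genes, 2287 of 13923 (16.4%) lay wholly above and 2299 (16.5%) wholly below, while 400 (2.87%) were higher and 581 (4.17%) lower at an unadjusted p under 0.05. The median of the heat shock list was 0.46, with 0.42 in each replicate pair, against -0.01 over all genes. Hsph1, a nucleotide exchange factor of the 70-kDa chaperones, was at 33.7 and 25.5 CPM in WT and 47.4 and 56.3 in Y665H (log2 difference 0.80, edgeR adjusted p = 0.212). Hspe1, the mitochondrial co-chaperonin, was at 858 and 1009.8 in WT and 1217 and 1774 in Y665H (0.66, adjusted p = 0.593). For both the groups did not overlap, while Hsp90ab1 and Chordc1, at 0.18 and 0.26, had overlapping libraries.

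**Figure D1:**
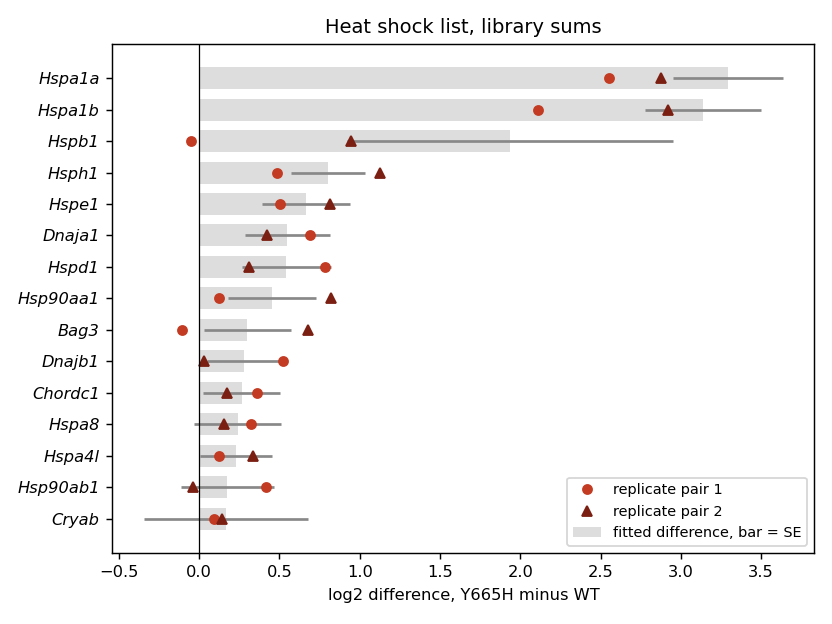
Log2 difference (Y665H minus WT, horizontal axis) of the 15 heat shock genes in the library sums, with grey bars for the fitted difference, whiskers for its SE, and a point for each replicate pair. Hspa1a at 3.29 and Hspa1b at 3.14 lie far to the right of Hsph1 at 0.80, and all 15 bars lie above 0.

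Dqx1 and Snhg9 also rose. Dqx1 (chr6:83057844-83067318, plus strand), which encodes a DEAQ-box protein of the RNA helicase family, was at 1.85 and 4.95 CPM in WT and 5.62 and 21.8 in Y665H. The groups did not overlap, although WT replicate 2 and Y665H replicate 1 lay close together. The log2 difference was 1.90 ± 0.31 (3.74-fold, edgeR adjusted p = 1.36e-04), and the Y665F libraries held 1.45 and 1.39. With 1 library left out, the difference ran from 1.14 (without Y665H replicate 2) to 2.45 (without Y665H replicate 1). Snhg9 (chr17:24719531-24719965, minus strand) is a small nucleolar RNA host gene that lies opposite Rps2, a ribosomal protein gene, and is listed as antisense. It was at 1.74 and 3.60 in WT and 4.90 and 12 in Y665H, without overlap, with a log2 difference of 1.61 ± 0.29 (adjusted p = 0.00191). Each call was lost without Y665H replicate 2, where the adjusted p was 1 for Dqx1 and 0.685 for Snhg9, and with library totals in place of TMM, where it was 0.0665 and 0.164.

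Prg2, the major basic protein of eosinophil granules, was at 0.163 and 1.07 CPM in WT and 3.19 and 2.91 in Y665H, against 112 and 38.2 in Y665F. The WT and Y665H libraries did not overlap (log2 difference 2.10 ± 0.42, edgeR adjusted p = 0.00721), but without WT replicate 1 the difference was 0.91 and the adjusted p 0.528, and without Y665H replicate 2 they were 1.86 and 0.138. Other eosinophil genes were near 0: Epx had UMIs in 1 of the 4 libraries, and Prg3 lay between 0.119 and 0.6. Jchain, which joins IgA and IgM subunits in plasma cells, stood at 1.42 and 1.86 in WT and 31.8 and 2.40 in Y665H, so its call (log2 2.23, adjusted p = 0.0289) came from Y665H replicate 1, without which the adjusted p was 1, and it was also lost without WT replicate 1. With library totals in place of TMM neither Prg2 nor Jchain passed (adjusted p = 0.135 and 0.276). The plasma gate held 2, 2, 3 and 1 cells, and Sdc1, another plasma marker, was at 3.49 and 4.27 in WT and 3.30 and 2.77 in Y665H. Immunoglobulin genes made up the last 4 that passed. Igkc, the constant segment of the kappa light chain, was at 1.31 and 1.19 in WT and 16.2 and 11.5 in Y665H (log2 3.48 ± 0.39), without overlap. With 1 library left out its difference ran from 2.59 (without Y665H replicate 2) to 4.38 (without WT replicate 2). The Y665F libraries held 17.0 and 1.73 of Igkc. Igkc did not pass with DESeq2 (adjusted p = 0.669) or in edgeR's fit without the replicate term (adjusted p = 0.579). In the B-lineage gate described below its log2 difference was -0.08 ± 0.68 (edgeR adjusted p = 0.995). The other 3 are variable segments. Iglv1 (4.66) stood at 69.0 in Y665H replicate 1 and at 1.04 or lower in the other 3, and Iglv2 (-5.27) was at 0.926 or lower in all 4. Igkv14-126 (3.59) was at 28.1 and 0 in WT and 166 and 17.3 in Y665H. Its difference ran from 2.49 (without WT replicate 2) to 12.6 (without WT replicate 1).

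Genes that fell were Prss34, Gm46218, Cacnb2, Gm38394, Kcnq5, C030034L19Rik, Rcsd1 and Gm4258. Prss34, a protease of basophils and mast cells, was at 6.59 and 2.45 CPM in WT and 2.46 and 0.831 in Y665H (log2 difference -1.44 ± 0.30, edgeR adjusted p = 0.0151). WT replicate 2 and Y665H replicate 1 were level, so the groups overlapped. Rcsd1, which encodes an actin capping protein regulator, was at 69.9 and 30.1 in WT and 23.8 and 20.8 in Y665H (-1.08 ± 0.24, adjusted p = 0.0338). Cacnb2, a calcium channel subunit, was at 13.4 and 5.06 in WT and 4.08 and 2.95 in Y665H (-1.30 ± 0.27, adjusted p = 0.0158). In each of the 8, WT replicate 1 was the highest of the 4 libraries. With it left out, their log2 differences ran from -0.56 for Rcsd1 to -1.29 for Prss34, and that of Iglv2 was -5.32. Without that library none of the 8 passed, and neither did Iglv2, the other gene that was lower. None of the 8 passed without Y665H replicate 1 or without Y665H replicate 2 either, and with library totals Prss34 and Rcsd1 alone of the 8 did. Gm38394 and Gm4258 share their positions with other genes on the same strand, so their counts are uncertain. The part of WT replicate 1's stated differences in mitochondrial share and nuclear RNA in these calls was not tested.

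**Figure D2:**
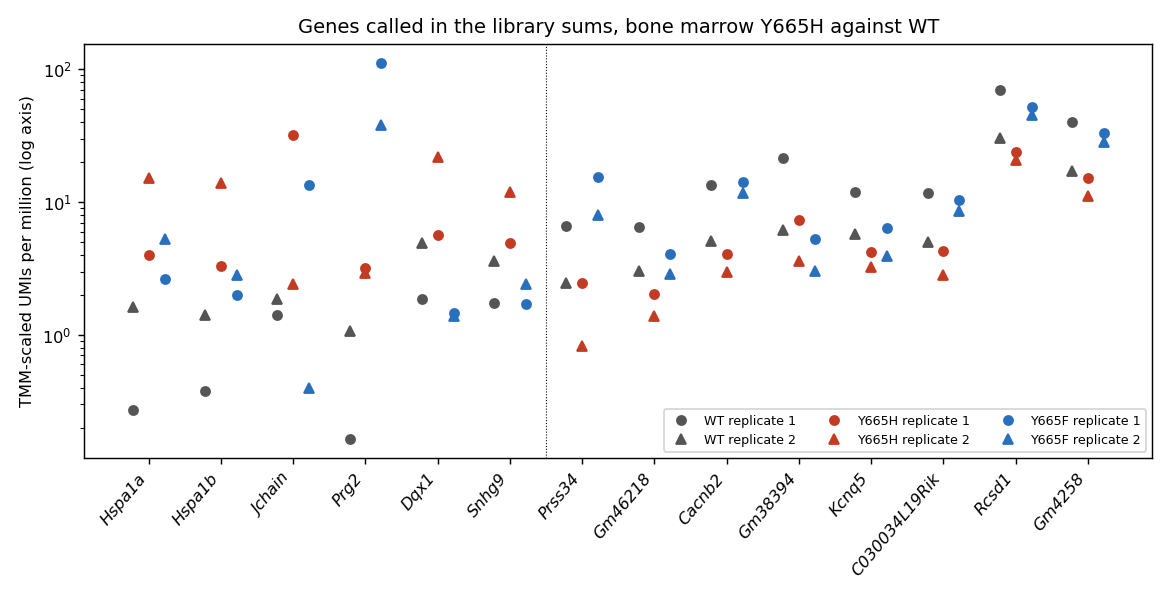
Level of each of the 14 called genes other than immunoglobulin segments in the 6 bone marrow libraries, in TMM-scaled CPM on a log axis, with a point for each library and genotype by colour. Hspa1a separates WT (0.272 and 1.62) from Y665H (4.03 and 15.0), whereas for Rcsd1 the gap is between WT replicate 1 at 69.9 and the other WT and Y665H libraries at 20.8 to 30.1.

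The 10 genes next in order of p that the naming rule took in, 6 higher and 4 lower in the fit, are given as values, with adjusted p between 0.0553 and 0.150. Gdf3, a growth factor of the TGF-beta family, was at 31.9 and 12.8 CPM in WT and 56.2 and 28.4 in Y665H, and the groups overlapped. Hist1h2ap, a replication-dependent histone gene, was at 19.3 and 15.1 in WT and 29.2 and 39.1 in Y665H, without overlap. Wfdc21 was at 1.53 and 2.81 in WT and 5.37 and 5.40 in Y665H, without overlap, and at 49.4 and 23.1 in Y665F. Stfa1, a stefin-type protease inhibitor with near-identical copies beside it, had the largest fitted difference of the 6 (4.52 ± 1.06) but rested on 48 UMIs in Y665H replicate 1, against 1 or 0 in the other 3 libraries. Gm26885 was at 0.163 and 0.435 in WT and 0.560 and 2.72 in Y665H, without overlap. Ndufb1-ps, listed as a bidirectional promoter long RNA that overlaps Cpsf2 on the other strand, was at 419 and 748 against 916 and 1498, also without overlap. On the other side, Kcna3, a voltage-gated potassium channel, was at 3.87 and 1.38 in WT and 1.04 and 0.554 in Y665H (-1.66 ± 0.41). The long RNAs Gm43305, at 784 and 388 against 258 and 233 (-1.14), and 2900052L18Rik, at 21.7 and 11.9 against 9.26 and 7.29 (-0.98), also lay wholly below WT. Slc17a8, a vesicular glutamate transporter, had 6 and 2 UMIs in WT and 0 in both Y665H libraries. In each of these 4, WT replicate 1 was the highest of the 4 libraries.

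Stat5b and its closest relative did not pass. Stat5b was at 22.7 and 21.0 CPM in WT and 19.1 and 20.1 in Y665H, with a log2 difference of -0.16 ± 0.23 (edgeR adjusted p = 0.961). Stat5a was at 26.9 and 25.9 in WT and 25.2 and 29.4 in Y665H (0.04 ± 0.23, adjusted p = 0.987). These counts do not tell the edited transcript from the unedited one.

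The STAT5 target list was made of 20 genes, of which 19 were tested. Of these, 0 passed edgeR's test, against 0.129% of all genes, and 0 passed with DESeq2. At an unadjusted p under 0.05 there were 3, against 7.05% of all genes. The list's median was -0.03 against -0.01 over all genes. In 2 members (10.5%) both Y665H libraries lay above both WT libraries, and in 4 (21.1%) below. These shares are near the 16.4% and 16.5% of all genes. Among the feedback inhibitors, Socs2 was at 4.36 and 4.75 CPM in WT and 2.66 and 2.63 in Y665H. The groups did not overlap and the replicates were close, but the log2 difference of -0.79 ± 0.27 did not pass (edgeR adjusted p = 0.417). Cish was at 3.16 and 3.72 in WT and 2.13 and 2.91 in Y665H, also without overlap (-0.47 ± 0.28, adjusted p = 0.783). In the other direction, Socs3, an inhibitor of gp130-type receptor signalling, was at 0.926 and 2.37 in WT and 3.02 and 3.65 in Y665H, without overlap (1.01, adjusted p = 0.375). The survival genes Bcl2 (-0.47), Bcl2l1 (-0.12) and Mcl1 (0.23) and the cell-growth genes Myc (0.05), Pim1 (0.06) and Ccnd2 (-0.06) had adjusted p between 0.701 and 0.987.

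Values of the same genes in Y665F are given for contrast. A rise there does not tell whether a fall below the WT level could be registered. Cell makeup also differed, with 11.6% and 11.4% of Y665F cells in the stem gate described below, against 2.40% and 3.04% in Y665H. Its part in the folds was not tested. Y665F exceeded Y665H by 31.0-fold for Socs2 (89.9 and 74.5 CPM), 9.44-fold for Cish (23.7 and 23.1) and 5.01-fold for Pim2. In that contrast 12 of the 19 STAT5 targets passed higher in Y665F and 3 lower, against 48.8% of all genes (6789 of 13923) that passed in either direction. Of the 16 JAK-STAT components, 6 passed higher and 1 lower in Y665F, a share near that of all genes. Between Y665H and WT 0 of them passed edgeR's test, 0 had an unadjusted p under 0.05 and 0 passed with DESeq2. Over all genes 0.129% passed edgeR's test in that comparison and 7.05% had an unadjusted p under 0.05.

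**Figure D3:**
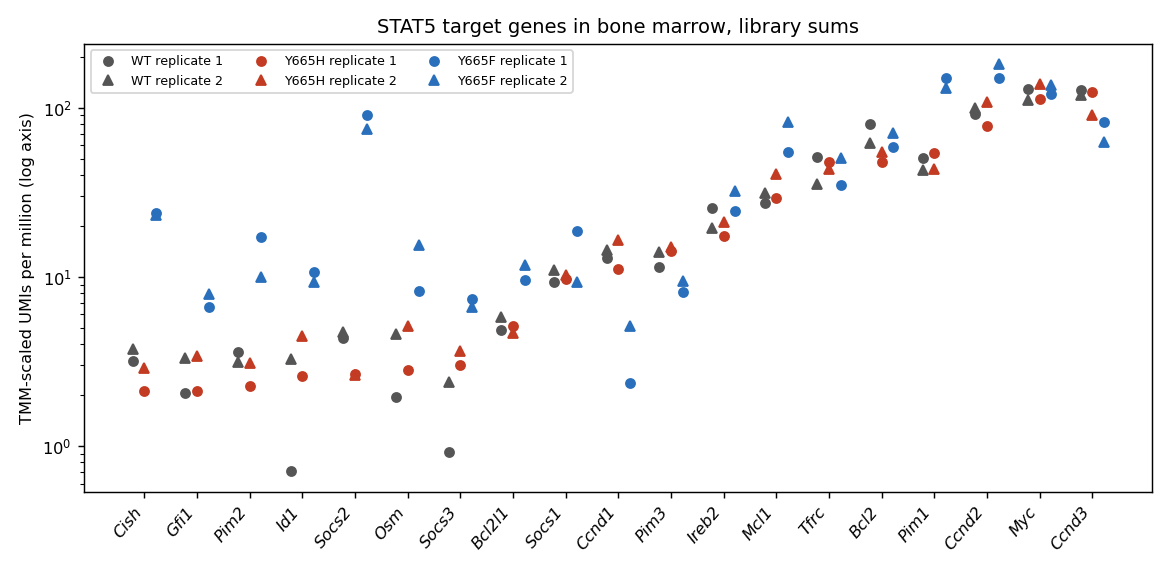
Level of the STAT5 target genes in the 6 bone marrow libraries, in TMM-scaled CPM on a log axis. For Socs2, WT (4.36 and 4.75) and Y665H (2.66 and 2.63) sit close together under Y665F at 89.9 and 74.5.

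Receptor genes for cytokines and growth factors had a median of -0.28, with 10 of 21 wholly below WT and 0 wholly above. Less the median of all genes it was -0.27, and -0.090 without WT replicate 1. Flt3, the receptor of early lymphoid and dendritic progenitors, was at 76.6 and 66.4 CPM in WT and 39.7 and 54.5 in Y665H (log2 -0.62, edgeR adjusted p = 0.509). Il7r was at 23.1 and 26.7 in WT and 18.6 and 19.6 in Y665H (-0.39), and Epor, the erythropoietin receptor, at 0.09. None of the 21 passed with edgeR, 3 had an unadjusted p under 0.05, and 0 passed with DESeq2. The stem cell list behaved likewise: median -0.17, 10 of 28 wholly below and 1 above, 0 passed with either tool and 7 at an unadjusted p under 0.05, all 7 lower, against 16.5% and 4.17% of all genes on that side. Of these, Angpt1 was at 97.7 and 87.0 in WT and 61.7 and 62.9 in Y665H (-0.57), Mecom at 3.98 and 3.88 against 2.35 and 2.95 (-0.57), and Erg at 22.4 and 25 against 15.0 and 18.5 (-0.51). These 3 did not overlap. On the other side, 8 of the 28 had a log2 difference above 0. The 7 markers of the stem gate described below summed to 263 and 368 CPM in WT and 285 and 562 in Y665H, with overlap. Of these, Ifitm1 took 164 and 271 in WT and 197 and 473 in Y665H.

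B-lineage genes had the lowest median of the lists, -0.47. Of 13 genes, 0 had a log2 difference above 0, against 6769 of 13923 over all genes. With edgeR or DESeq2 0 passed, and 5 were lower at an unadjusted p under 0.05, against 4.17% of all genes. Rag1, a subunit of the V(D)J recombinase, was at 2.67 and 7.48 CPM in WT and 1.99 and 3.55 in Y665H (-0.88, edgeR adjusted p = 0.506). Blnk, a B-cell receptor adaptor, was at 16.0 and 18.4 in WT and 11.0 and 11.5 in Y665H (-0.62). Ebf1, a B-lineage transcription factor, was at 70.8 and 106 in WT and 36.3 and 81.3 in Y665H (-0.61). Rag1 and Ebf1 overlapped between the genotypes and Blnk did not. Less the median of all genes, the list stood at -0.46, but at 0.07 without WT replicate 2 and -0.14 without Y665H replicate 1. B-lineage cells themselves made up 3.99% and 4.94% of WT and 2.11% and 3.72% of Y665H cells.

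Genes of the nuclear-encoded respiratory chain had a median of 0.48 (0.67 and 0.28 in the pairs). Of 80 genes, 57 lay wholly above WT and 0 below, against 16.4% and 16.5% of all genes. Ribosomal protein genes had a median of 0.28 with 52 of 83 above, and genes of the G2 and M phases 0.25 with 28 of 48 above. In these 3 lists 0 genes passed with edgeR or DESeq2, while 22, 5 and 2 were higher at an unadjusted p under 0.05, against 2.87% of all genes, and 2 genes of the G2 and M phases lay wholly below WT. As a share of UMIs the respiratory chain took 3.91% and 4.77% in WT and 4.88% and 5.47% in Y665H, and the low value belonged to WT replicate 1. The ribosomal list took 28.3% and 30.8% in WT and 30.3% and 31.6% in Y665H, with overlap. Counts above and below WT are on the TMM scale, whose factors were 1.14 and 0.916 in WT and 0.871 and 0.836 in Y665H. A smaller factor gives a higher CPM. Less the median of all genes, the respiratory chain list stood at 0.49, and at 0.23 without WT replicate 1. On the same scale the ribosomal list went from 0.29 to 0.10 without it, and the G2 and M list from 0.26 to 0.062 without Y665H replicate 1. Neutrophil later-granule genes had a median of 0.73, but the pairs gave 0.72 and -0.03, and less the median of all genes it turned from 0.75 to -0.26 without WT replicate 1. Ngp, a neutrophil granule protein, was at 8.45 and 44.0 in WT and 87.5 and 60.2 in Y665H, with WT replicate 1 far below. Interferon-induced genes had a median of 0.19, led by Isg15, a ubiquitin-like protein, at 52.5 and 57.5 in WT and 117 and 87.1 in Y665H (0.86, edgeR adjusted p = 0.199).

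Cells were then sorted into lineage gates by marker scores. A gate is a range of a score and not a cell type, and 45.6% to 57.7% of the cells of the 4 libraries met no gate. Of 16 marker lists, 12 gates and the ungated rest had enough cells for a test of their share, and 0 shares passed edgeR's test or had an unadjusted p under 0.05 (no other tool was run). With 2 libraries per genotype an exact permutation test cannot give a p below 0.333, the value for any gate whose groups do not overlap. Lymphoid-primed cells made up 6.74% and 5.19% of WT and 3.98% and 3.55% of Y665H cells, without overlap (log2 -0.66 ± 0.33, edgeR adjusted p = 0.436). Stem and multipotent cells made up 3.72% and 4% against 2.40% and 3.04%, also without overlap (-0.51 ± 0.33, adjusted p = 0.493). Megakaryocyte-gated cells were at 2.38% and 2.18% against 1.95% and 1.76% (-0.30 ± 0.34, adjusted p = 0.639), without overlap. B-lineage cells, given above, did not overlap either (-0.62 ± 0.41, edgeR adjusted p = 0.493). The largest fitted difference was that of plasmacytoid dendritic cells, at 0.392% and 0.243% against 0.262% and 0.110%, with overlap (-0.83 ± 0.43, edgeR adjusted p = 0.436). Granulocyte-monocyte progenitors lay on the other side, at 7.77% and 6.79% in WT and 8.65% and 8.10% in Y665H, without overlap (0.20 ± 0.33, adjusted p = 0.679). Early erythroid cells were at 15.2% and 15.8% against 24.9% and 15.3%, so that only Y665H replicate 1 was high. In Y665F the stem gate held 11.6% and 11.4% and the early erythroid gate 3.94% and 1.15%.

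**Figure D4:**
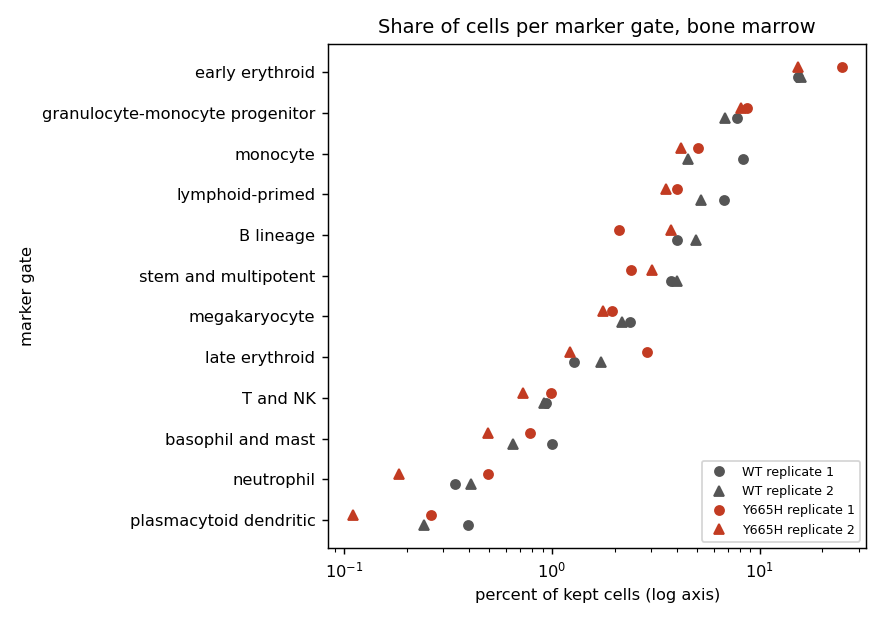
Share of kept cells in each marker gate, in percent on a log axis, with a point for each WT and Y665H library. The lymphoid-primed points of Y665H (3.98% and 3.55%) lie below those of WT (6.74% and 5.19%), while those of most gates overlap.

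Within gates, the genes that passed were few and Hspa1a recurred. In early erythroid cells 9 of 10144 genes passed (0.0887%), in granulocyte-monocyte progenitors 2 (0.0198%), in lymphoid-primed cells 5 (0.0591%), in monocytes 5 (0.0602%) and in stem and multipotent cells 2 (0.0286%). In B-lineage, late erythroid and megakaryocyte gates 0 passed with edgeR (0%), with 275, 284 and 243 genes at an unadjusted p under 0.05 and 0 with DESeq2. Without the replicate term 0 genes passed in any gate, with 133 to 509 at an unadjusted p under 0.05, and DESeq2 passed 1 gene, in the stem gate. In summed early erythroid cells Hspa1a was at 0.154 and 0.756 CPM in WT and 2.19 and 6.74 in Y665H (log2 3.19 ± 0.57, edgeR adjusted p = 8.56e-05). In granulocyte-monocyte progenitors it was at 0 and 2.99 in WT and 7.45 and 24.5 in Y665H (3.17 ± 0.58, adjusted p = 0.00307). In monocytes it was at 0.778 and 5.68 in WT and 13.4 and 39.6 in Y665H (3.06 ± 0.59, adjusted p = 0.00144). The groups did not overlap in any of the 3 gates, and in each library the level was higher in monocytes than in early erythroid cells. The call was lost without Y665H replicate 2 in all 3, without WT replicate 2 in early erythroid cells and without Y665H replicate 1 in monocytes. Elsewhere the counts were too low to test: the stem gate held 0 and 0 UMIs in WT and 1 and 5 in Y665H, and in the lymphoid-primed and megakaryocyte gates WT and Y665H libraries overlapped.

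Early erythroid cells also carried the rises of Hspa1b, Dqx1 and Snhg9. Hspa1b was at 0.461 and 1.36 CPM in WT and 2.25 and 11.2 in Y665H (log2 2.75 ± 0.46, edgeR adjusted p = 1.27e-05). Dqx1 was at 2.46 and 4.69 in WT and 5.43 and 23.4 in Y665H (1.85 ± 0.30, adjusted p = 3.86e-06), and Snhg9 at 2.61 and 4.08 against 5.03 and 13.7 (1.41 ± 0.31, adjusted p = 0.0102). None of the 3 overlapped between the genotypes in this gate. The immediate-early transcription factors Fos and Jun passed as well. Fos was at 1.69 and 12.9 in WT and 7.68 and 20.02 in Y665H (1.21 ± 0.26, adjusted p = 0.0064), and Jun at 6.92 and 17.8 against 17.4 and 28.6 (0.98 ± 0.22, adjusted p = 0.0145). Both overlapped, since WT replicate 2 lay above Y665H replicate 1. Ptp4a1, a tyrosine phosphatase, and Gm20628 were lower in the fit, but in each the replicate 2 pair differed by less than 0.05 in log2 and WT replicate 1 was the highest library. The ninth gene was Igkv14-126, an immunoglobulin kappa segment, at 8.61 and 0 in WT and 12.1 and 8.79 in Y665H, from 56, 0, 182 and 47 UMIs (1.43 ± 0.30, adjusted p = 0.00314), and the part of RNA from other cells in it was not tested. Leaving out WT replicate 2 or Y665H replicate 2 lost Hspa1b, Dqx1, Snhg9, Jun and Igkv14-126. Without WT replicate 1, Fos, Jun, Ptp4a1 and Gm20628 did not pass, and without Y665H replicate 1 neither these 4 nor Snhg9 did. With library totals in place of TMM 0 genes passed in this gate (364 at an unadjusted p under 0.05).

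**Figure D5:**
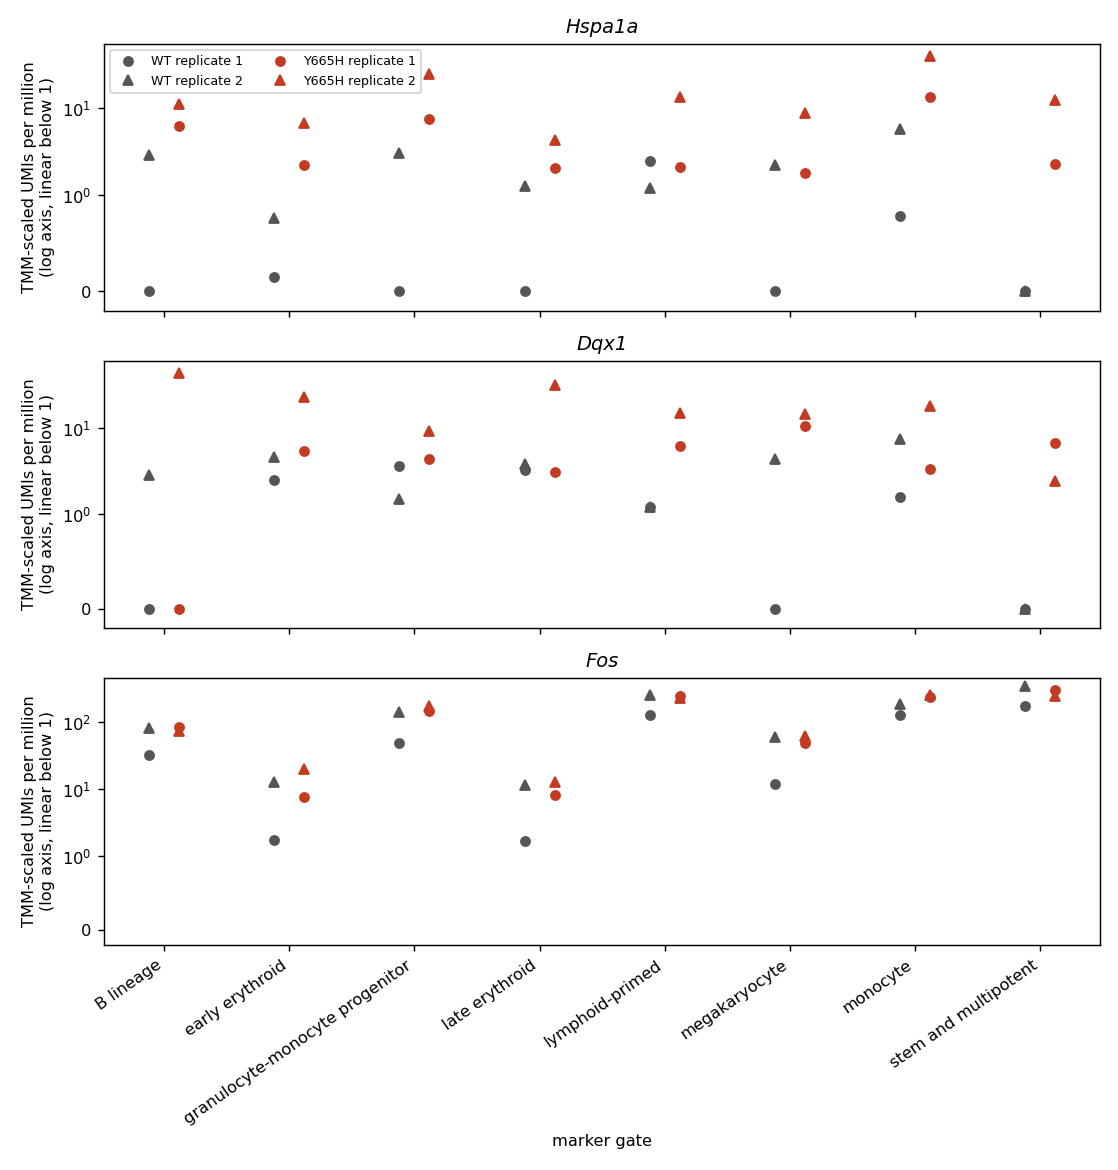
Levels of Hspa1a, Dqx1 and Fos in each of the 8 tested gates, in TMM-scaled CPM (log axis, linear below 1), with a point for each WT and Y665H library. In monocytes Hspa1a is at 13.4 and 39.6 in Y665H and 0.778 and 5.68 in WT, whereas for Fos the early erythroid libraries of the genotypes interleave.

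In granulocyte-monocyte progenitors the other gene that passed was Hist1h2ap, at 2.71 and 10.5 CPM in WT and 14.6 and 32.9 in Y665H (log2 1.85 ± 0.39, edgeR adjusted p = 0.0289), without overlap. Its call was lost without WT replicate 2 and without either Y665H library. With library totals in place of TMM, neither it (adjusted p = 0.506) nor Hspa1a (3.12, adjusted p = 0.127) passed in this gate, where 2 other genes passed, both lower in Y665H. In monocytes the chemokine genes Ccl3 and Ccl4, which encode attractants of leukocytes, passed. Ccl3 was at 10.1 and 31.2 in WT and 41.0 and 66.7 in Y665H, without overlap (1.47 ± 0.35, adjusted p = 0.0363). Ccl4 was at 8.56 and 116 in WT and 93.4 and 185 in Y665H, and overlapped (1.54 ± 0.33, adjusted p = 0.00882). In the same gate Gm14636 fell from 45.1 and 11.4 to 10.1 and 4.52 (-1.88 ± 0.44, adjusted p = 0.0363), and Gm26917 passed lower with pairs of opposite sign (-3.38 and 0.62). WT replicate 1 was the highest library for both Gm genes and the lowest for Ccl3 and Ccl4, none of the 4 passed without it, and the part of its stated differences in these calls was not tested. Leaving out Y665H replicate 1 or Y665H replicate 2 left 0 genes passing in monocytes, with 147 and 207 at an unadjusted p under 0.05. With library totals Ccl3 and Gm14636 did not pass.

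Metallothionein genes, which encode small proteins that bind zinc and copper, passed in the lymphoid-primed and stem gates. In lymphoid-primed cells Mt2 was at 6.03 and 10.9 CPM in WT and 25 and 55.5 in Y665H (log2 2.24 ± 0.48, edgeR adjusted p = 0.0216). In stem and multipotent cells Mt1 was at 35.3 and 118 in WT and 140 and 308 in Y665H (1.57 ± 0.34, adjusted p = 0.0481). Neither overlapped. Early erythroid cells held far more of both in all 4 libraries, Mt1 at 1301 to 1740 and Mt2 at 439 to 630. Mt1 did not pass in the other 7 gates, where its log2 difference lay between 0.26 in early erythroid and 1.63 in B-lineage cells. The stem gate's other passing gene was Pclaf, a PCNA-binding factor of DNA replication, at 93.4 and 263 in WT and 341 and 622 in Y665H (1.51 ± 0.32, adjusted p = 0.0481). Neither Mt1 nor Pclaf passed in the stem gate once WT replicate 1, Y665H replicate 1 or Y665H replicate 2 was left out. With library totals neither of these passed (adjusted p = 0.149 and 0.133), nor did Mt2 or Smim1, described next, in lymphoid-primed cells.

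Early erythroid marker RNA moved with these genes in 5 of the 6 tested gates that are not erythroid. The 6 early erythroid markers summed to 479 and 999 CPM in WT and 1104 and 1924 in Y665H in lymphoid-primed cells, and to 1277 and 2070 against 2197 and 2749 in stem and multipotent cells. In monocytes they summed to 376 and 620 against 894 and 1220, in granulocyte-monocyte progenitors to 487 and 644 against 786 and 1061, and in B-lineage cells to 827 and 1290 against 2181 and 2643. Both Y665H libraries lay above both WT libraries in these 5 gates, whereas in the early erythroid gate itself the sums overlapped, at 11208 and 15988 against 15001 and 13623, as they did in the megakaryocyte gate, at 2233 and 1678 against 1740 and 2698. The 5 markers of granulocyte-monocyte progenitors also summed higher in both Y665H libraries, at 936 and 896 against 1003 and 1148 in lymphoid-primed cells, 1502 and 1224 against 1645 and 1673 in stem and multipotent cells and 799 and 608 against 1098 and 1038 in B-lineage cells. The same held in the early erythroid gate (189 and 203 against 229 and 261), in late erythroid cells and in monocytes, and the sums overlapped in the megakaryocyte gate and in the progenitors themselves. All these sums are on the TMM scale, where a smaller factor gives a higher CPM. In lymphoid-primed cells the factors were 1.19 and 0.954 in WT and 0.950 and 0.886 in Y665H. The order of the progenitor marker sums on library totals was not tested. The part of either marker RNA in the results of these gates, those of Hspa1a and Hist1h2ap included, was not tested.

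Lymphoid-primed cells gave 4 further genes. Smim1, which encodes a red-cell membrane protein that carries the Vel antigen, was at 6.03 and 6.03 CPM in WT and 20.9 and 51.6 in Y665H, without overlap (log2 2.48 ± 0.53, edgeR adjusted p = 0.0216). Early erythroid cells held 259 to 490 of it. Utrn, the dystrophin relative utrophin, was at 84.5 and 31.4 in WT and 18.8 and 13.4 in Y665H (-1.81 ± 0.41, adjusted p = 0.0277). Gm4258 fell from 127 and 51.9 to 42.8 and 15.3 (-1.60), and Gm43305 from 2785 and 899 to 697 and 459 (-1.46). For these 3 the groups did not overlap, and WT replicate 1 was far above WT replicate 2. Without WT replicate 1 neither Utrn nor Gm4258 passed, and without either Y665H library none of the 5 genes of this gate did. With a lead of 0.5 over the next marker list in place of 0.25, 0 of 7753 genes passed in this gate (8.58% at an unadjusted p under 0.05).

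Across the 8 gates the heat shock list kept a median above 0, from 0.17 in early erythroid to 0.47 in stem and multipotent cells, while medians over all genes tested lay between -0.02 and 0.01. This was not particular to it. In B-lineage, granulocyte-monocyte and early erythroid gates heat shock stood at 0.46, 0.31 and 0.17. The respiratory chain list was higher there, at 0.54, 0.41 and 0.20, and the ribosomal list lower, at 0.41, 0.22 and 0.06. The STAT5 target list lay between -0.15 in lymphoid-primed and 0.17 in monocytes, with 0 members passing edgeR's test in any gate, 0 to 2 at an unadjusted p under 0.05, and 0 with DESeq2. Socs2 in the stem gate was at 20.2 and 34.3 CPM in WT and 8.91 and 9.69 in Y665H, without overlap, from 8, 20, 4 and 4 UMIs (log2 -1.65 ± 0.60, edgeR adjusted p = 0.816). In Y665F it was at 235 and 134 in the same gate. The other feedback inhibitor, Cish, was level there, at 7.57 and 18.9 in WT and 11.1 and 17.0 in Y665H, with overlap (log2 -0.03 ± 0.61, edgeR adjusted p = 0.997). In B-lineage cells Socs2 was at 53.9 and 28.8 in WT and 52.7 and 29.1 in Y665H, where the genotypes were level within each pair.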

How the data were processed

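Bone marrow cells were loaded on a 10x Genomics droplet system. The labels name the 3′ kit and the methods the 5′ kit. The authors deposited gene-by-barcode matrices of UMI counts, not normalized, which hold 32285 genes. The submitters' processing notes name Cell Ranger 5.0, Seurat 4.0 and mm10, and the matrix headers name Cell Ranger 6.0.0.

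A barcode was kept if it had 200 or more genes detected and no more than 10% of its UMIs from mitochondrial genes. For lineage gates, the top doublet scores (scanpy 1.11.5) were removed at 0.8% per 1000 barcodes, and a cell joined the marker list with the highest mean standardised score if 2 markers had a UMI, the mean reached 0.5 and it led the next list by 0.25. Cells were not used as replicates: counts were summed per library, or per gate where each of the 4 libraries had 50 cells. edgeR 4.0.16 (R 4.3.3) was fitted to all 6 bone marrow libraries with filterByExpr, TMM, genotype and replicate number, which left 2 residual degrees of freedom. Pair differences are log2(CPM + 0.5). The SE of a fitted difference is its absolute value divided by the square root of the test's F statistic. It therefore rests on the same pooled spread as the p-value. The scripts were tested on simulated counts.

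Named genes were the 12 largest rises and 12 largest falls of the library sums (5 and 5 in each gate) among genes passing with a log2 difference over 1 and both pairs in the same direction, filled by the lowest p, without sex-linked or immunoglobulin genes and, within gates, gate markers. Stat5a, Stat5b, Cish, Socs2 and passing list members were added. List members described besides these, and immunoglobulin genes that passed, were chosen after their values were seen. The members and lists were chosen with earlier results of these data known. Replicate numbers share no stated animal, litter or day. The replicate 1 minus replicate 2 differences correlated across 13917 genes at 0.283 between WT and Y665H, 0.222 between Y665H and Y665F and -0.126 between WT and Y665F, which does not establish them as pairs. Alternatives were the fit without the replicate term, WT and Y665H libraries only, DESeq2 1.42.0, RLE factors, no filter, all barcodes, doublets kept, a gate lead of 0.5, globin genes left out, each library left out and, chosen after seeing the data, library totals without TMM factors.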

Additional observations from a re-analysis of the deposited data

How the results depend on the processing

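The replicate term decided the calls. In the fit with no replicate block, 0 genes passed in the library sums and in each gate. The numbers were not established as pairs, since the 3 correlations of replicate differences ran from -0.126 to 0.283. DESeq2 passed 4 in the library sums, 1 in the stem gate and 0 in the early erythroid, granulocyte-monocyte, lymphoid-primed and monocyte gates. Fits to the WT and Y665H libraries only passed 43 genes (38 called) in the library sums, 36 (8 called) in early erythroid, 22 (2 called) in late erythroid, 15 in monocytes, 9 (8 called) in the stem gate and 5 in the B-lineage gate. Without the filter on low counts the numbers were 57 (53 called) in the library sums, 5 in granulocyte-monocyte progenitors and 1 in B-lineage cells. Library totals alone lowered the median of all genes to -0.27 and passed 10 genes in the library sums (5 higher and 5 lower), 16 (13 called) in lymphoid-primed cells (4 higher and 12 lower, against 2 and 3 with TMM), 8 in monocytes (4 and 4, against 3 and 2), 6 in megakaryocytes (1 and 5, against 0 and 0), 2 in granulocyte-monocyte progenitors (0 and 2, against 2 and 0) and 0 in the early erythroid and stem gates, and Stat5a turned to -0.22. RLE factors passed 4 in the stem gate. All deposited barcodes gave 1 in granulocyte-monocyte progenitors and 8 in monocytes, doublets kept gave 4, 9 and, in lymphoid-primed cells, 2, and a gate lead of 0.5 gave 4 in early erythroid, 1 in granulocyte-monocyte, 2 in late erythroid, 0 in lymphoid-primed and 5 in stem cells.

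Leaving out 1 library gave 12 to 930 genes passed (12 to 380 called) in the library sums, where 41 passed without WT replicate 1, 930 without WT replicate 2, 12 without Y665H replicate 1 and 19 without Y665H replicate 2. The ranges were 0 to 534 (0 to 508 called) in B-lineage, 4 to 11 in early erythroid, 2 to 74 in granulocyte-monocyte, 0 to 1 in late erythroid, 0 to 637 (0 to 547 called) in lymphoid-primed, 0 to 7 in megakaryocyte, 0 to 196 in monocyte and 0 to 55 in stem cells, with the highest value without WT replicate 2 in each. The remaining library of a genotype was assumed to vary like the others, and the cause of these moves was not tested. Log2 differences that turned ran from -0.041 (without WT replicate 1) to 4.70 for Jchain, -0.87 (without WT replicate 1 and -0.69 without Y665H replicate 1) to 6.04 for Iglv1, -2.80 to 0.18 (without WT replicate 1) for early erythroid Gm20628, -1.85 to 0.12 (without Y665H replicate 1) for early erythroid Ptp4a1, -2.77 to 0.19 and -3.24 to 0.44 (both without WT replicate 1) for monocyte Gm20342 and Gm26917, and -0.051 (without Y665H replicate 2 and -0.039 without WT replicate 2) to 0.16 for Stat5a. Log2 differences of shares that turned ran from -0.29 (without WT replicate 1) to 0.995 for early erythroid, -0.53 (without Y665H replicate 1 and -0.0037 without WT replicate 1) to 1.20 for late erythroid, -1.13 to 0.48 (without Y665H replicate 2 and 0.15 without WT replicate 2) for neutrophil and -0.42 to 0.18 (without Y665H replicate 2) for T and NK cells.

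Less the median of all genes, and with 1 library left out, list medians ran from -0.083 to 0.082 for STAT5 target genes, -0.20 to -0.027 for JAK-STAT components, -0.42 to -0.09 for cytokine and growth factor receptors, -0.11 to 0.19 for BCL2 family, -0.19 to -0.16 for stem cell genes, -0.81 to 0.89 for globins and -0.0016 to 0.35 for heme synthesis and iron. They ran from 0.17 to 0.35 for red-cell membrane, -0.41 to 0.0053 for megakaryocyte and platelet, -0.0028 to 0.48 for neutrophil primary granule, -0.26 to 2.53 for neutrophil later granule, -0.081 to -0.0053 for monocyte and macrophage, -0.24 to 0.63 for eosinophil, basophil and mast cell and -1.04 to 0.075 for B lineage. They ran from -0.46 to 0.022 for T and NK, -0.64 to 0.20 for MHC class II, 0.16 to 0.29 for interferon-induced, 0.042 to 0.31 for S phase, 0.062 to 0.43 for G2 and M phase, 0.022 to 0.71 for immediate early and 0.41 to 0.56 for heat shock. They ran from 0.047 to 0.24 for unfolded protein and amino acid stress, -0.12 to 0.21 for p53 targets, 0.021 to 0.064 for glycolysis, -0.14 to 0.10 for cholesterol synthesis, -0.31 to 0.11 for chromatin regulators mutated in leukemia, 0.10 to 0.53 for ribosomal proteins and 0.23 to 0.75 for respiratory chain. Without the replicate block, the median was -0.020 for monocyte and macrophage, -0.013 for eosinophil, basophil and mast, 0.22 for interferon-induced, 0.49 for heat shock and 0.012 for cholesterol synthesis. In WT and Y665H libraries only, the median was 0.074 for eosinophil, basophil and mast, 0.39 for heat shock and -0.014 for cholesterol synthesis. With RLE factors, the median was 0.10 for eosinophil, basophil and mast. With library totals alone, the median was 0.13 for eosinophil, basophil and mast, 0.20 for interferon-induced, 0.45 for heat shock and -0.010 for cholesterol synthesis.

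With a pair of libraries per genotype the spread is poorly known, and genes with few UMIs per gate could not be tested.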

Other observations

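Other gene groups held no gene that passed the test of edgeR or DESeq2 in the library sums, and are given as values. Of 13 red-cell membrane genes, 12 had a log2 difference above 0, against 6769 of 13923 over all genes. In 5 both Y665H libraries lay above both WT libraries, against 16.4% of all genes. At an unadjusted p under 0.05, 2 were higher, against 2.87% of all genes. Rhag, a Rh-associated membrane protein, was at 27.8 and 15.0 CPM in WT and 30.9 and 28.1 in Y665H, without overlap (0.51, edgeR adjusted p = 0.646). The list's median was 0.27, beside 0.30 for 5 globin genes and 0.16 for 17 heme synthesis and iron genes. The globin pairs had opposite signs, 0.56 and -0.54, and the share of early erythroid cells was high in Y665H replicate 1 alone, so the part of cell makeup in these values was not tested.

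Of 15 megakaryocyte and platelet genes, 5 lay wholly below WT and 0 above, against 16.5% and 16.4% of all genes. Their median was -0.14. Itgb3, the platelet integrin beta-3 chain, was at 6.76 and 2.97 CPM in WT and 2.46 and 2.12 in Y665H, without overlap but with WT replicate 1 far above the other libraries (-1.02, edgeR adjusted p = 0.182). Gp1ba, part of the receptor for von Willebrand factor, was at 2.18 and 1.90 in WT and 1.09 and 0.923 in Y665H (-0.997, adjusted p = 0.544), where the pairs differed alike, by -0.75 and -0.75. Pf4, platelet factor 4, stood on the other side of 0 at 0.51, with WT replicate 1 at 67.0 and the other 3 libraries between 144 and 154.

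Immediate early genes had a median of 0.23, and 18 of 20 had a log2 difference above 0, yet 0 of the 20 separated the genotypes in either direction. The replicate pairs gave 0.53 and -0.09. Nr4a1, an orphan nuclear receptor induced by many stimuli, was at 2.45 and 25.9 CPM in WT and 10.9 and 30.1 in Y665H (0.98, edgeR adjusted p = 0.182), and replicate 2 was the higher in each genotype, as for Hspa1a. On the TMM scale, 12 of 31 S phase genes lay wholly above WT and 0 below, against 16.4% and 16.5% of all genes. Their median was 0.15. Nasp, a histone chaperone, was at 155 and 169 in WT and 227 and 229 in Y665H, with close replicates and no overlap (0.50, adjusted p = 0.703).

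Medians of the T and NK list (-0.31, with pairs at 0.05 and -0.28) and of MHC class II (-0.25, with pairs at 0.13 and -0.59) rested on pairs of opposite sign. Those of the monocyte, glycolysis, cholesterol synthesis, BCL2 family and leukemia-mutated chromatin regulator lists lay between -0.11 and 0.08.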
